A study of Mus musculus with 12 samples.

Results

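The miRNAs described here come from imprinted loci other than Dlk1-Meg3: miR-296 and miR-298 of the Gnas locus, miR-335 of Mest, miR-483 of Igf2 and miR-675 of H19. They were chosen by name, each strand kept apart and rows marked with # (minor strands) left out, which gave 7 assays of 5 hairpins among the 750 miRNA assay spots of the panel. The study compared pancreatic islets of young adult male C57BL/6 offspring. The LP0.5 group was born to dams on a low-protein diet through pregnancy, and the Control group to dams on a control diet, with 6 samples listed for each. The mice were 2 to 3 months old, and the islets were picked by hand after collagenase digestion and rested overnight in culture before RNA was taken. Small RNAs were measured by TaqMan real-time PCR, in which a fluorescent probe reports the amplification of 1 small RNA per spot.

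Imprinted genes are expressed mainly from the maternal or from the paternal copy, a choice set by DNA methylation marks laid down in the germ line. Igf2, which encodes a fetal growth factor, is expressed from the paternal copy and carries miR-483 in an intron, while the neighbouring H19, a long non-coding RNA of the maternal copy, is the precursor of miR-675. Mest, paternally expressed, carries miR-335 in an intron, and miR-296 and miR-298 are attributed to a paternally expressed antisense transcript of the Gnas locus, which also encodes the stimulatory G protein subunit that couples GLP-1 receptors to cyclic AMP in beta cells.

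The hairpins are shown first, because the adjacent miR-296 and miR-298 carry the widest difference among the values below. Sequences are those of RefSeq, build GRCm38.p6, 5′ to 3′ on the transcribed strand. All 5 hairpins were matched by symbol, and capitals mark both mature arms.
Mir296, chr2:174267047-174267125, minus strand: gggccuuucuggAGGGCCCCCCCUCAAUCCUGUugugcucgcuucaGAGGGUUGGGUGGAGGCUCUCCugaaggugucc
Mir298, chr2:174267504-174267585, minus strand: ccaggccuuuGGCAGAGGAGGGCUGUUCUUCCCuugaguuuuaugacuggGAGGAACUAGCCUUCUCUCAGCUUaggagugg
Mir335, chr6:30741299-30741396, plus strand: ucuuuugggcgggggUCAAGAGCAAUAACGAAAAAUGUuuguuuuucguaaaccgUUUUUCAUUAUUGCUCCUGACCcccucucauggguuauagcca
Mir483, chr7:142654924-142654996, minus strand: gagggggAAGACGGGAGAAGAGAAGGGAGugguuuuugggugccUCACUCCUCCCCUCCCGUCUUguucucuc
Mir675, chr7:142577064-142577147, minus strand: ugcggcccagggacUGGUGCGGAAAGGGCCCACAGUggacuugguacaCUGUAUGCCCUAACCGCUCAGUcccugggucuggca

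Mir296 and Mir298 lie 378 bases apart on the same strand, and in this annotation both lie outside Gnas, 17.2 kb and 16.7 kb from its first base. Both also lie outside the annotated antisense gene Gnasas1, and Mir298, the nearer, is 13.7 kb from it. Mir335 lies inside Mest, Mir483 inside Igf2 and Mir675 inside H19. Mir675 and Mir483 are 77.8 kb apart, and Mir483 is 23.7 kb from Ins2, a gene for insulin.

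The mature arms are shown with the seed, bases 2 to 8, in capitals, since the seed sets most of a miRNA's target choice. Both arms are given because the panel names miR-296, miR-298, miR-335 and miR-483 without stating an arm.
mmu-miR-296-5p: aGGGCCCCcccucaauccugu
mmu-miR-296-3p: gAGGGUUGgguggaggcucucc
mmu-miR-298-5p: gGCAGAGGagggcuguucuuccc
mmu-miR-298-3p: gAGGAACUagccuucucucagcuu
mmu-miR-335-5p: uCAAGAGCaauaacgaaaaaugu
mmu-miR-335-3p: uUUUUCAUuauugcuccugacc
mmu-miR-483-5p: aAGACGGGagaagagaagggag
mmu-miR-483-3p: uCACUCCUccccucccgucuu
mmu-miR-675-5p: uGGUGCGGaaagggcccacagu
mmu-miR-675-3p: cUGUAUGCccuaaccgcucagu

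The 10 arms held 10 different seeds, so the loci share imprinting but no seed. None of the seeds was found in a mature miRNA of another hairpin among the 1738 mature sequences in the RefSeq table. Matching on the first 6 seed bases alone found a partner for 4 arms, and none of these partners was on the panel. Base composition differed, from 30.4% G and C in miR-335-5p to 68.2% in miR-296-3p.

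For each spot the deposit holds a single linear ratio, headed as the low-protein group vs Control and read here as LP0.5 over Control. Values per sample did not enter here, so an SD, a p-value and a check over replicates are lacking for every ratio below, and the levels behind the ratios were not analysed here. Direction rests on that reading of the heading alone. The study is known for miR-199a-3p being raised in low-protein islets, whereas the authors' deposited table lists hsa-miR-199a-3p at 0.422. Because of this, ratios are described as listed above or below 1, and a reversed heading was not tested. In whole islets, fewer cells of a type and less of an RNA per cell cannot be told apart.

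A ratio was listed for 4 of the 7 assays, namely miR-296, miR-298, miR-335 and miR-675-5p. The other 3, miR-296-3p, miR-675-3p and miR-483, were listed without one (42.9%), against 184 of all 750 miRNA spots (24.5%). All 4 assays with a ratio belong to the part of the panel called the A set here, 8 of 16 blocks with 304 listed miRNA ratios. Their median ratio was 0.976, and the middle of the distribution, between the 25th and the 75th percentile, ran from 0.796 to 1.19.

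Of the 4 listed ratios, 3 were below 1, as were 49.1% of all listed miRNA spots and 52.3% of those in the A set, and 1 was above 1, as were 50.9% of all and 47.7% in the A set. At 1.5-fold or more below 1 stood 2 of 4, against 16.8% of all 566 listed miRNA spots and 15.8% of those in the A set. None stood 1.5-fold or more above 1, against 18.6% of all listed spots and 13.2% in the A set. At a 2-fold limit 2 of 4 were again below, miR-298 and miR-675-5p, against 11.8% of all listed spots and 9.87% in the A set, and none was above, against 12.4% of all and 9.21% in the A set. The median log2 ratio of the 4 was -0.98, beside 0.01 over all listed miRNA spots and -0.03 over the A set. With 4 values this median lies midway between miR-335 and miR-675-5p, which were 1.95-fold apart.

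**Figure D1:**
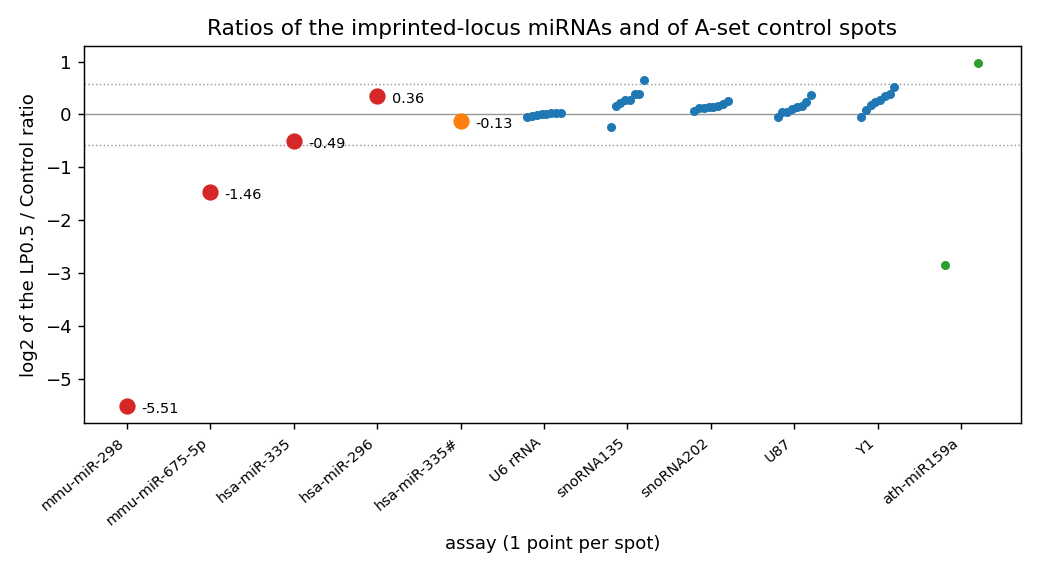
Log2 of the LP0.5 over Control ratio, 1 point per spot: imprinted-locus miRNAs in red, the # strand of miR-335 in orange, 5 small RNA controls in blue and the plant assay ath-miR159a in green, all of the A set. Dotted lines mark 1.5-fold. MiR-298 at -5.51 and miR-675-5p at -1.46 lie below the range of the small RNA controls, and the plant assay's spots lie at -2.85 and 0.97.

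At the Gnas locus, the ratios of the adjacent hairpins lay far apart. MiR-296, known from human endothelial cells as a promoter of vessel growth, had a ratio of 1.28 in the authors' deposited table (0.36 on the log2 scale). It was the only one of these miRNAs above 1, with 251 of the A-set spots lower and 52 higher. MiR-298, known in mouse cells to repress Bace1, which encodes the beta-secretase also found in beta cells, stood at 0.0219 in the authors' deposited table, 45.7-fold below 1 (-5.51 on the log2 scale). Of the A-set spots, 1 was lower, hsa-miR-551b, at 0.0209 in the authors' deposited table. Ratios 10-fold or more from 1 were rare in the A set, with 5 spots below and 5 above. Among those above was mmu-miR-294, at 3.63e+07 in the authors' deposited table. MiR-296-3p, the other arm of the miR-296 hairpin, had no ratio.

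**Figure D2:**
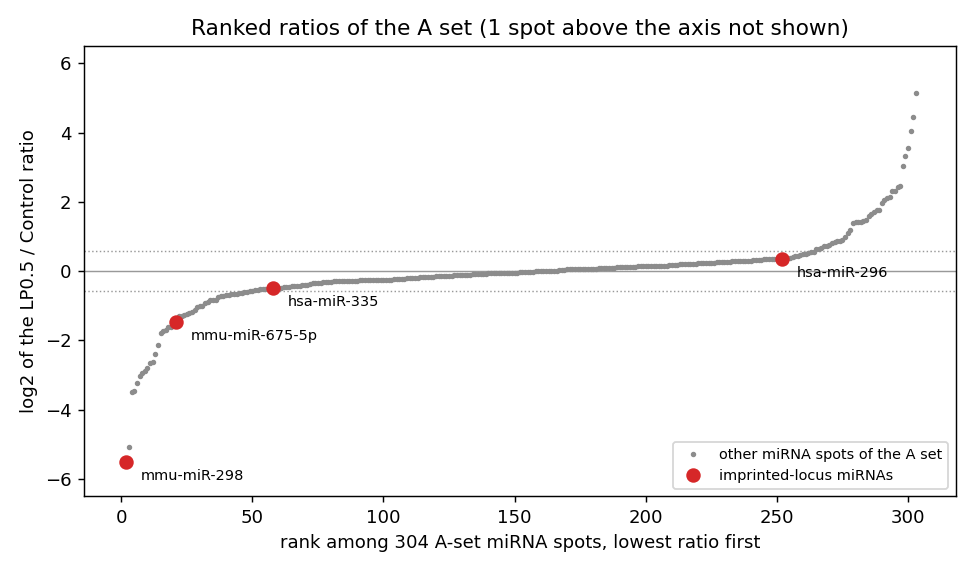
Log2 ratios of the 304 listed A-set miRNA spots (y axis) by rank (x axis), with the imprinted-locus miRNAs in red and dotted lines at 1.5-fold; mmu-miR-294 lies above the axis. MiR-298 sits at the low end, miR-675-5p in the lower tail, and miR-335 and miR-296 between the 1.5-fold lines.

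The ratio of miR-296 exceeded that of miR-298 by 58.4-fold. For scale, 56 pairs of adjacent hairpins within 1 kb could be formed from 305 panel names placed in the RefSeq gene table, out of 387 names with a ratio. Each name entered with the mean log2 ratio of its listed spots without #, over arms, species assays and both sets. MiR-296 and miR-298 each entered with a single A-set spot, whereas averaging can draw in the values of other names. The 56 pairs differed by a median of 1.41-fold. The miR-296 and miR-298 pair was the widest of the 56, and the next pair, miR-449b and miR-449, differed by 33.2-fold. Many of these pairs come from a few clusters and share spots, so they are not independent. The miR-298 ratio alone makes most of the distance.

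**Figure D3:**
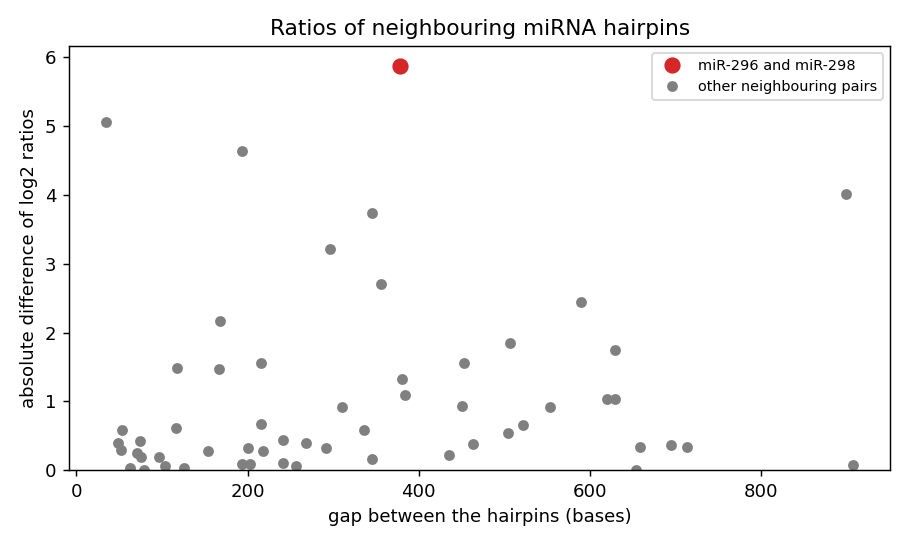
Absolute difference of log2 ratios (y axis) against the gap in bases (x axis) for 56 pairs of adjacent hairpins within 1 kb. The red point, miR-296 and miR-298, lies at 5.87 with a gap of 378 bases, above each of the 55 other pairs.

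At Mest, both strands were listed and both lay below 1. MiR-335, known from rat to repress genes of insulin exocytosis and to be raised in islets of the diabetic Goto-Kakizaki rat, had a ratio of 0.710 in the authors' deposited table (-0.49 on the log2 scale). That is 1.41-fold below 1 and just inside the 1.5-fold limit, with 57 A-set spots lower and 246 higher. The # strand, outside the named set, had a ratio of 0.915, again from the authors' deposited table. The strands differed by 1.29-fold. Of 71 hairpin names listed both with a # spot and without #, 51 differed at least that far, miR-335 itself among them. There the spots without # entered as a mean log2 ratio over arms, species assays and both sets. These differences can therefore hold more than a difference of strands.

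At the H19 and Igf2 domain, 1 of the 3 assays had a ratio. MiR-675-5p, processed from H19 and known in mouse placenta to restrain growth through the IGF1 receptor, stood at 0.364 in the authors' deposited table (-1.46 on the log2 scale). It stood 2.75-fold below 1, with 20 A-set spots lower and 283 higher. MiR-675-3p had no ratio, so the arms could not be set side by side. MiR-483, reported as raised in adipose tissue of rats whose mothers ate a low-protein diet, had no ratio, and neither had its # strand. The deposited ratios therefore give no value for the Igf2 side of this domain in islets.

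Repeated spots of 1 assay show the technical noise of a ratio, and the spread between animals is not in them. Within the A set the 8 spots of each small RNA control ranged from 0.961 to 1.02 for U6 and from 0.850 to 1.56 for snoRNA135, the widest. MiR-298, miR-675-5p and miR-335 lay below all 40 of these spots, while miR-296 lay inside the snoRNA135 range. These spots repeat 5 assays of usually abundant RNAs on the same samples, so they cover assay noise only, and the abundance of the miRNAs was not analysed here. Control spots of the B set ranged more widely, with the lowest U87 spot at 0.133 beside a U87 median of 1.04. That spot is lower than miR-675-5p and miR-335 and higher than miR-298. Among 36 miRNA names assayed at a pair of spots, the median difference was 1.38-fold and the 95th percentile 6.07-fold. Species prefixes were dropped in this pairing and both sets were used, so some pairs hold different assays and not repeats. An example is rno-miR-673 of the A set with mmu-miR-673 of the B set, at -0.24 and 24.9 on the log2 scale. The differences of the pairs can therefore hold more than technical noise. At least as far apart as the listed distance from 1 were 21 of the 36 pairs for miR-296, 18 for miR-335, 7 for miR-675-5p and 1 for miR-298. That 1 pair is the miR-673 example of different assays, and none of the other pairs reached the miR-298 distance. The plant assay ath-miR159a, which has no mouse target, had a ratio at 2 of its 8 A-set spots, at 0.139 and 1.96 in the authors' deposited table. The miR-675-5p, miR-335 and miR-296 ratios lie between these plant values and the miR-298 ratio lies below both. In the B set, which holds none of the 4 ratios, the plant assay had a ratio at 8 of 8 spots, between 2.59 and 3.37 per the authors' deposited table. The part of low signal in any of these ratios was not tested.

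Scaling moved the members together. Against the mean of snoRNA135, snoRNA202, U87 and Y1 in place of U6, log2 ratios of the A set dropped by 0.197, and miR-335 then passed the 1.5-fold limit at -0.69, which made 3 of 4 below it, against 23.4% of A-set spots. MiR-296 stayed above 1 at 0.16. No member changed side of 1 against either that mean or the median of all A-set miRNA spots. Either shift was smaller than the distance of every member from 1 on the log2 scale, so no side could change.

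**Figure D4:**
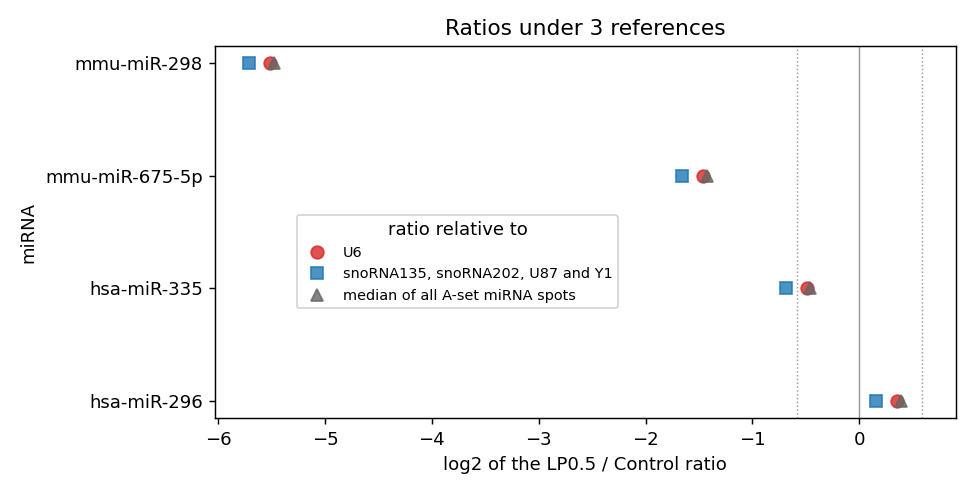
Log2 of the LP0.5 over Control ratio (x axis) of each miRNA (rows) relative to U6, to the 4 other small RNA controls and to the median of all A-set miRNA spots, with dotted lines at 1.5-fold. MiR-335 is the only one to cross a dotted line, at -0.69 against the 4 other controls.

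The assays whose ratios lay nearest to each member in the A set were taken as a description of the pattern over this 1 comparison. For miR-298 these were hsa-miR-551b (0.0209) and hsa-miR-874 (0.0298), with ratios from the authors' deposited table. For miR-675-5p they were hsa-miR-674 (0.353) and mmu-miR-503 (0.329), also from the authors' deposited table. For miR-335 they were mmu-miR-677 (0.711) and mmu-miR-542-5p (0.715), and for miR-296 hsa-miR-181a and mmu-miR-500 (both 1.28), per the authors' deposited table. A likeness over 1 ratio separates assays little in the crowded middle of the distribution, where miR-335 and miR-296 lie.

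Other imprinted miRNA groups on the panel lay around 1 in the A set, the set of all 4 ratios above. The Dlk1-Meg3 cluster, maternally expressed, had 47 listed A-set spots, 23 above 1 and 24 below, with a median log2 ratio of -0.01. At least 1.5-fold above 1 were 5 of these 47 and at least 1.5-fold below 1 were 5, against 13.2% and 15.8% of all listed A-set spots. The Sfmbt2 intron cluster, paternally expressed, had 7 listed A-set spots, 4 above 1 and 3 below, with 1 at least 1.5-fold above and 1 below and a median log2 ratio of 0.15. Over both sets its median was 0.35, as 13 of its 20 listed spots, and 7 of the 8 at least 1.5-fold above 1, were in the B set, where 65 of all 262 listed spots stood that far above 1. Read by the heading, the members' median of -0.98 is below both A-set medians, and with the ratio turned round it would be above both. The difference between the groups was not tested. The lowest Dlk1-Meg3 ratio was 0.143 for mmu-miR-380-3p and the lowest Sfmbt2 ratio 0.134 for rno-miR-466b, in the authors' deposited table. These lowest ratios lay nearer to 1 than that of miR-298. The highest ratios of these groups were in the B set. On the log2 scale, mmu-miR-673 of Dlk1-Meg3 stood at 24.9 and MMU-MIR-466K of Sfmbt2 at 5.13 in the authors' deposited table. The mmu-miR-673 ratio thus lay further from 1 than that of miR-298, at -5.51, and the MMU-MIR-466K ratio lay nearer.

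**Figure D5:**
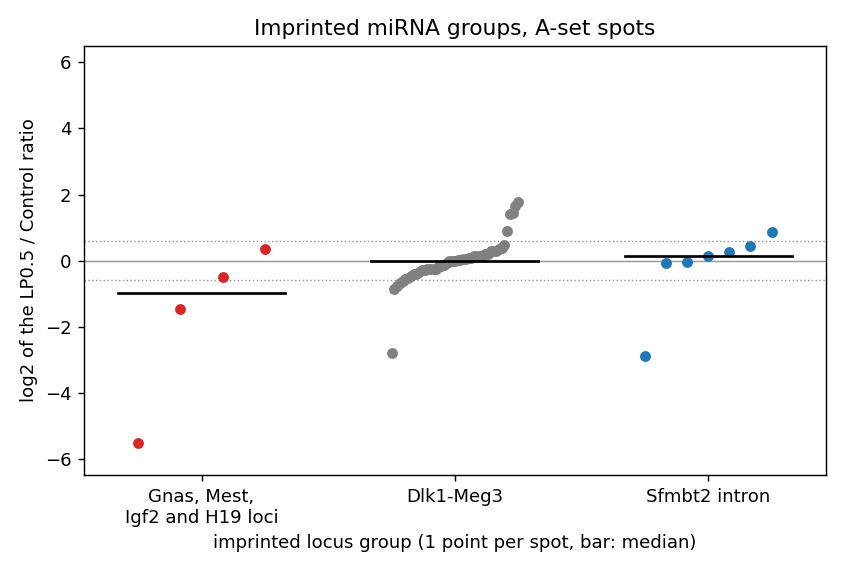
Log2 of the LP0.5 over Control ratio (y axis) for the listed A-set spots of 3 groups of imprinted loci (x axis), 1 point per spot, bars at the medians of -0.98, -0.01 and 0.15, dotted lines at 1.5-fold. The 4 points of the Gnas, Mest and H19 loci spread from -5.51 to 0.36, and Igf2 has none.

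Markers of the cells an islet preparation can hold, as far as found on the panel, were all listed with a ratio. The 13 endocrine islet assays ran from 0.523 for mmu-miR-7b to 1.45 for hsa-miR-183 in the authors' deposited table, with 7 above 1 and 6 below. The 4 acinar assays ran from 0.726 to 1.83, the endothelial hsa-miR-126 stood at 0.975, the 6 blood assays ran from 0.305 to 1.78 and the 7 fibroblast and stellate assays from 0.190 to 2.66, as given in the authors' deposited table. Some of these ends rest on repeated assays that disagree. The other assay of hsa-miR-143, lowest of the fibroblast and stellate assays, stood at 1.11, and the other assay of mmu-miR-217, highest of the acinar assays, at 0.950, both in the authors' deposited table. The part of cell makeup in the ratios of miR-298, miR-675-5p, miR-335 and miR-296 was not tested.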

How the data were processed

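Small RNAs were measured by TaqMan PCR with a FAM probe in total RNA isolated with the MirVana kit, per the labels' protocols. The submitters' processing notes name limma. Not given in the sources used here were its role, the reference, the detection limit and the averaging. A deposited file holds linear ratios (fold values), which the authors headed as the low-protein group vs Control. The other file pairs spots with small RNA names. Its 12 columns of per-sample values match no sample label and were used in no step, so the planned limma test was not run, and depth and threshold cycles were not analysed here.

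Ratios were joined to names by spot, split into the A and B sets by the spot code, and converted to log2. In each set U6 spots averaged 0 on the log2 scale, so ratios are relative to U6. The named miRNAs follow the rule of the opening, with their # strands, controls and the 2 nearest assays of the set; ends of lists were also named. Members and lists were chosen with earlier results of these data known. Alternatives were the reference (4 other controls, or the median of the set), the 1.5-fold or 2-fold limit and the # strands. Neighbouring hairpins, paired assays and the 10-fold limit were chosen after the values were seen. Functions were tested on simulated data. Python 3.11.15, numpy 2.4.6, pandas 2.3.3 and matplotlib 3.10.9 were used.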

Additional observations from a re-analysis of the deposited data

How the results depend on the processing

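The 4 listed miRNAs kept their side of 1 under each reference run. Each run took a single amount off every A-set log2 ratio, 0.197 or -0.035. Both amounts were smaller than the distance of any of the 4 from 1, so the kept sides are no independent check. Against snoRNA135, snoRNA202, U87 and Y1, log2 ratios were -5.71 for miR-298, -1.65 for miR-675-5p, -0.69 for miR-335 and 0.16 for miR-296, with a median of -1.17. This moved each by more than 0.129, the mean SD of A-set control spots, by construction of the scaling. The count at least 1.5-fold below 1 was 2 of 4 relative to U6, against 15.8% of A-set spots. It was 3 against these controls (23.4% of A-set spots), 2 against the set median (15.1%) and 2 at a 2-fold limit (9.87%). The count above was 0 in each, against 13.2%, 11.2%, 13.2% and 9.21% of A-set spots in the same order. With the # strand of miR-335 the median was -0.49, because a value near 1 joined the 4. With the A set alone, chosen after seeing the data, the Dlk1-Meg3 median was -0.01 against 0.04 over both sets, and the Sfmbt2 median 0.15 against 0.35. Of 21 values under alternatives, 14 moved by less than that SD or, for counts, by no more than 1.5 times. The set-median shift of -0.035 is smaller than that SD, so each log2 value under it was among the 14 by construction. The count that went from 2 to 3 was among them too, as it lay at the limit of 1.5 times. This tally is therefore no independent check either. No paired analysis was possible because the per-sample columns carry no sample label; the limma alternatives (filter, normalization, replicate number as a block, leaving out samples) were not run for the same reason. Signal over background was not analysed here, so the 3 assays without a ratio cannot be called absent.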
